A study of Mus musculus with 6 samples.

Results

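Endothelial lineage transcription factors are the DNA-binding proteins and partners that establish blood vessel identity in the embryo and maintain it in the adult. The 10 genes described here were taken by symbol from the count tables of a mouse brain endothelial study: the ETS factors Erg, Fli1 and Ets1, the SOXF factors Sox7, Sox17 and Sox18, the TAL1 complex genes Tal1 and Lmo2, the nuclear receptor gene Nr2f2 and the forkhead gene Foxf2. All 10 were found among the 23329 symbols of the tables, and all 10 passed the filter on low counts that left 14838 genes for testing. The members were listed by name, and the choice was made with earlier results of these data known.

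RNA sequencing was done on brain endothelial cells isolated by magnetic bead sorting (MACS) from C57BL/6 mice 8 weeks old and lysed without culture. The 3 libraries labelled GLUT1EC-/- came from mice whose genotype label stands for loss of Slc2a1, the gene of the glucose carrier GLUT1, in endothelial cells, and the 3 WT libraries from wild-type littermates, with a separate animal number for each library. The comparison addresses how the transcriptome of these cells differs between the labelled genotypes. The promoter that drives the deletion, its time and the deleted exons are not given in the sources used here. No treatment is named for either group.

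ETS factors bind DNA through a shared ETS domain and occupy the enhancers of many genes typical of endothelium, such as Cdh5 and Tie1. SOXF factors bind through an HMG box and act in arterial and lymphatic specification, partly in place of each other. TAL1, a basic helix-loop-helix protein, and LMO2, which bridges it to GATA factors, serve both blood and endothelial development, while COUP-TFII, the product of Nr2f2, specifies veins and FOXF2 is needed for the blood-brain barrier.

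Within a family the genes resemble each other closely enough that sequencing reads could in principle be shared between them, so the coding sequence in which each pair is most alike is shown first, over the length of 1 read. The read length was 100 bases, and each sequence lies in a single coding exon of GRCm38 and reads 5′ to 3′ on the coding strand. Capitals mark the bases that differ within the pair. Erg (chr16:95361101-95361200, minus strand, exon 11) and Fli1 (chr9:32424080-32424179, minus strand, exon 9) have 91 of 100 bases in common in the part that encodes the ETS domain, and the longest run without a difference is 22 bases.
Erg: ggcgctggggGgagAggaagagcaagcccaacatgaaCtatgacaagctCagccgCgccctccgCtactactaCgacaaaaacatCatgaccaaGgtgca
Fli1: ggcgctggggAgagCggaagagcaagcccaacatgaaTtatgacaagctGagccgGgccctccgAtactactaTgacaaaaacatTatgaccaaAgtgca

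Fli1 (chr9:32424087-32424186, minus strand, exon 9) and Ets1 (chr9:32754213-32754312, plus strand, exon 8) have 79 of 100 bases in common in the same domain. The genes lie on one chromosome with a gap of 93.4 kb between them, and neither this pair nor the next matched over a whole read.
Fli1: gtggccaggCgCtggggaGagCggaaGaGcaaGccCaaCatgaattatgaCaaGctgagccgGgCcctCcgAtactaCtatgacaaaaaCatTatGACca
Ets1: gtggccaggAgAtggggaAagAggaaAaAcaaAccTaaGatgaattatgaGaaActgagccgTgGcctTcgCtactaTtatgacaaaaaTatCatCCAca

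Sox17 (chr1:4492561-4492660, minus strand, exon 4) and Sox18 (chr2:181670889-181670988, minus strand, exon 2) have 87 of 100 bases in common in the part that encodes the HMG box, with a longest identical run of 29 bases.
Sox17: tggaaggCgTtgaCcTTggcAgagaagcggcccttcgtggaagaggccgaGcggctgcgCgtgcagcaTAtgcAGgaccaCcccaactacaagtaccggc
Sox18: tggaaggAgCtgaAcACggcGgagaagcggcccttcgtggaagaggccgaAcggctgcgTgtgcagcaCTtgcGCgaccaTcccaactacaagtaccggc

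No pair of members therefore shared a run as long as a read. In GENCODE M21 transcripts, 0 of the 100-base sequences of 8 members were found in a transcript of another gene on either strand. The exceptions were Sox17, with 13.3% of its 100-base sequences in the antisense gene Gm37587, and Nr2f2, with 6.37% in the antisense gene B130024G19Rik. Foxf2 shares 98 exonic bases with a microRNA gene on the other strand. The strand setting of the counting is not given in the sources used here, so the counts of Sox17, Nr2f2 and Foxf2 may include reads from the opposite strand.

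Libraries held 31874662 to 39424384 counts. The 10 brain endothelial markers summed to 18265, 20537 and 18699 CPM in libraries labelled GLUT1EC-/- and to 21649, 20858 and 21769 CPM in WT libraries, where CPM is the count relative to a TMM-adjusted library total. No other marker list exceeded 2541 CPM in any library. GLUT1EC-/- 2 stood apart, with a TMM factor of 0.884 against 1.01 to 1.05 in the other 5 libraries, and values without it are given for the members and for the named genes whose difference it moves most. Slc2a1 was at 3735, 5414 and 3893 CPM in libraries labelled GLUT1EC-/- and at 3984, 4479 and 4172 CPM in WT libraries (log2 fold change 0.05, edgeR adjusted p = 0.921). The labelled loss was not seen in Slc2a1 mRNA, where the groups overlapped, and which exons the label refers to is not known here, so each direction below holds between libraries as labelled.

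None of the 10 transcription factors passed the test between genotypes. The test was edgeR's quasi-likelihood F test with Benjamini-Hochberg adjustment over all 14838 genes at a threshold of 0.05. It called 0 of 10 members, against a background of 1.31% of all genes (0.863% higher, 0.445% lower), while DESeq2 called 0 of 10 against 5.93% of all genes and limma-voom 0 of 10 against 0.997%. At an unadjusted p under 0.05 there were 4 members, Ets1, Sox7, Sox18 and Lmo2, all lower in libraries labelled GLUT1EC-/-. That unadjusted threshold was met by 14.5% of all genes in either direction and by 6.31% in the lower direction. By value 7 members were lower and 3 higher, with a median log2 fold change of -0.10, against 0.01 over all tested genes. Libraries did not overlap between groups for 3 members, Ets1, Sox7 and Lmo2, against 22.9% of all genes in either direction and 11.2% in the lower direction.

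**Figure D1:**
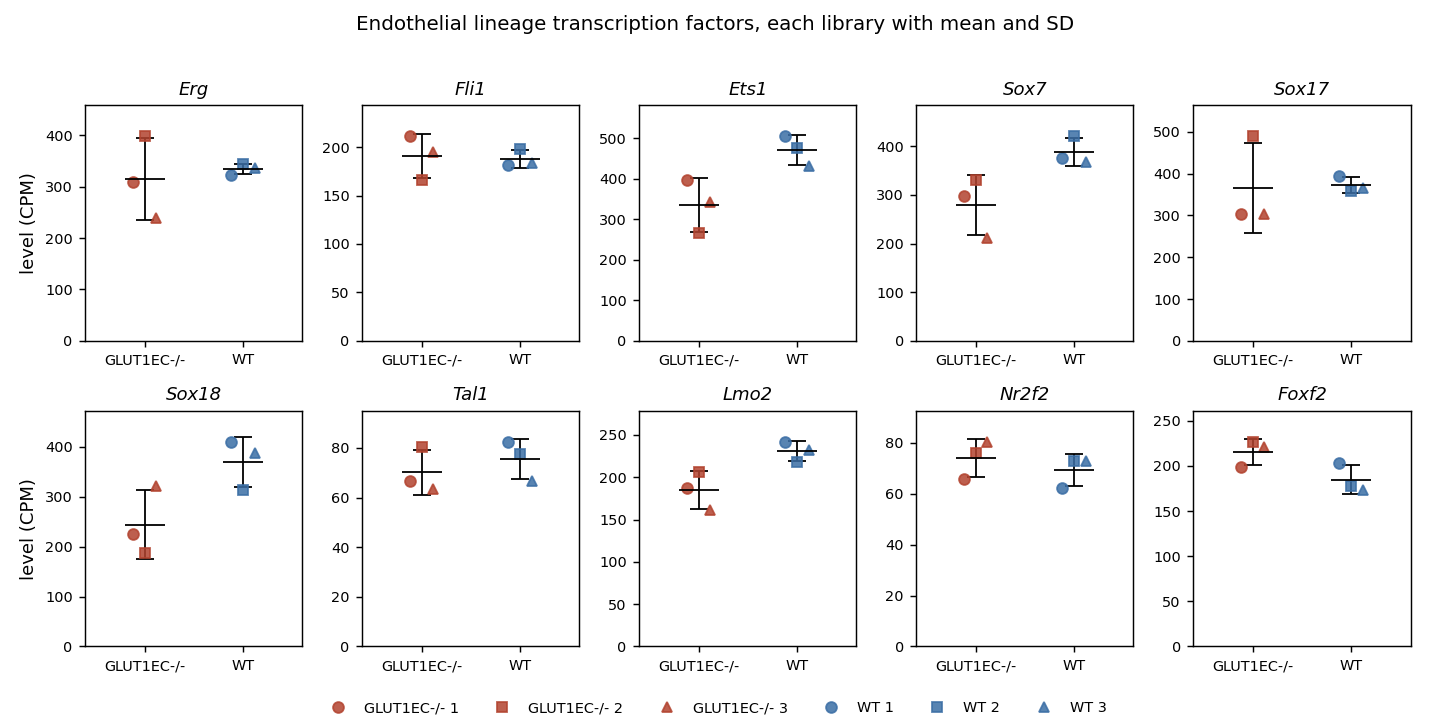
CPM of the 10 transcription factors in each library, with 3 libraries labelled GLUT1EC-/- on the left and 3 WT libraries on the right of each panel; bars show the mean and SD. Ets1, Sox7 and Lmo2 have no overlap between groups, and Erg, Sox7, Sox17 and Sox18 are more spread out among libraries labelled GLUT1EC-/-.

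Of the ETS members Erg, Fli1 and Ets1, Ets1 had the lowest level relative to WT. Ets1, known in endothelium for its part in vessel growth and in lymphocytes for their development, was at 397, 265 and 342 CPM in libraries labelled GLUT1EC-/- and at 504.6, 475.5 and 432.2 CPM in WT libraries. All libraries labelled GLUT1EC-/- lay below all WT libraries, and GLUT1EC-/- 2 was the lowest. The log2 fold change was -0.49 (SE 0.17, 95% interval -0.89 to -0.10, edgeR adjusted p = 0.238), a level 28.9% lower that did not pass the test. Without GLUT1EC-/- 2 the log2 fold change of Ets1 was -0.36 (edgeR adjusted p = 0.154).

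Erg, the ETS factor that keeps adult endothelium in its differentiated state, was at 309, 398 and 238 CPM in libraries labelled GLUT1EC-/- and at 323, 343 and 336 CPM in WT libraries. GLUT1EC-/- 2 lay above all WT libraries and the other two below all of them. The log2 fold change of Erg was -0.09 with an interval of -0.52 to 0.35 (edgeR adjusted p = 0.861), so the interval leaves room for folds of 0.697 to 1.27. Without GLUT1EC-/- 2 it was -0.30 (edgeR adjusted p = 0.264), and without GLUT1EC-/- 3 it was 0.08.

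Fli1, which shares many endothelial targets with Erg and is also made by blood cells, had nearly equal means. It was at 211, 167 and 195 CPM in libraries labelled GLUT1EC-/- and at 181, 199 and 183 CPM in WT libraries, and the groups overlapped. The log2 fold change was 0.02 (SE 0.14, 95% interval -0.29 to 0.34, edgeR adjusted p = 0.945), and the interval leaves room for folds of 0.819 to 1.26. Fli1 was at 0.11 without GLUT1EC-/- 2 (edgeR adjusted p = 0.654) and at -0.05 without GLUT1EC-/- 1.

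None of the SOXF genes passed the test. Sox18, which acts in vessel and lymphatic development, was at 224, 186 and 321 CPM in libraries labelled GLUT1EC-/- and at 410, 313 and 387 CPM in WT libraries. GLUT1EC-/- 3 lay just above WT 2, so the groups overlapped. Its log2 fold change of -0.60 was the lowest of the 10 members (SE 0.22, 95% interval -1.10 to -0.11, edgeR adjusted p = 0.249), and without GLUT1EC-/- 3 it was -0.85 (edgeR adjusted p = 0.0613). That fit called 0 of 10 members, against 1.88% of all genes. Without GLUT1EC-/- 2 the log2 fold change of Sox18 was -0.45 (edgeR adjusted p = 0.195).

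Sox7, the third SOXF gene of blood vessel endothelium, was at 297, 331 and 211 CPM in libraries labelled GLUT1EC-/- and at 375, 421 and 367 CPM in WT libraries. The groups did not overlap, and GLUT1EC-/- 3 was the lowest. The log2 fold change of Sox7 was -0.47 (SE 0.18, 95% interval -0.89 to -0.05, edgeR adjusted p = 0.284), and without GLUT1EC-/- 2 it was -0.62 (edgeR adjusted p = 0.0579). Without GLUT1EC-/- 3 it was -0.30 (edgeR adjusted p = 0.313).

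Sox17, which is known for arterial identity and for a part in the barrier, was at 303, 490 and 302 CPM in libraries labelled GLUT1EC-/- and at 395, 359 and 365 CPM in WT libraries. As with Erg, GLUT1EC-/- 2 was above all WT libraries and the other two were below them. The log2 fold change was -0.03 (SE 0.20, 95% interval -0.50 to 0.44, edgeR adjusted p = 0.953), and -0.31 without GLUT1EC-/- 2 (edgeR adjusted p = 0.154). It was 0.09 without GLUT1EC-/- 1, 0.09 without GLUT1EC-/- 3 and 0.0021 without WT 1, so the direction of Sox17 turned with the libraries used.

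Of the TAL1 complex pair, both were lower by value and neither passed the test. Lmo2 was at 187, 206 and 162 CPM in libraries labelled GLUT1EC-/- and at 242, 218 and 232 CPM in WT libraries, with no overlap. Its log2 fold change of -0.32 had a 95% interval of -0.63 to -0.01 (SE 0.14, edgeR adjusted p = 0.335), and it was -0.41 without GLUT1EC-/- 2 (edgeR adjusted p = 0.077). Tal1 was at 66.7, 80.5 and 63.4 CPM in libraries labelled GLUT1EC-/- and at 82.5, 77.5 and 66.7 CPM in WT libraries, overlapping, with a log2 fold change of -0.11 (95% interval -0.44 to 0.23, edgeR adjusted p = 0.769). Without GLUT1EC-/- 2 Tal1 was at -0.22 (edgeR adjusted p = 0.333).

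Foxf2 and Nr2f2 were not lower by value. Foxf2 was at 199, 227 and 221 CPM in libraries labelled GLUT1EC-/- and at 203, 178 and 173 CPM in WT libraries, where GLUT1EC-/- 1 lay just under WT 1. Its log2 fold change was 0.22 (SE 0.13, 95% interval -0.08 to 0.52, edgeR adjusted p = 0.485). Nr2f2 was at 65.8, 76.0 and 80.4 CPM in libraries labelled GLUT1EC-/- and at 62.1, 72.9 and 72.9 CPM in WT libraries, with a log2 fold change of 0.09 (95% interval -0.22 to 0.41, edgeR adjusted p = 0.777). The ranges of Nr2f2 overlapped, and without GLUT1EC-/- 2 it was at 0.07.

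**Figure D2:**
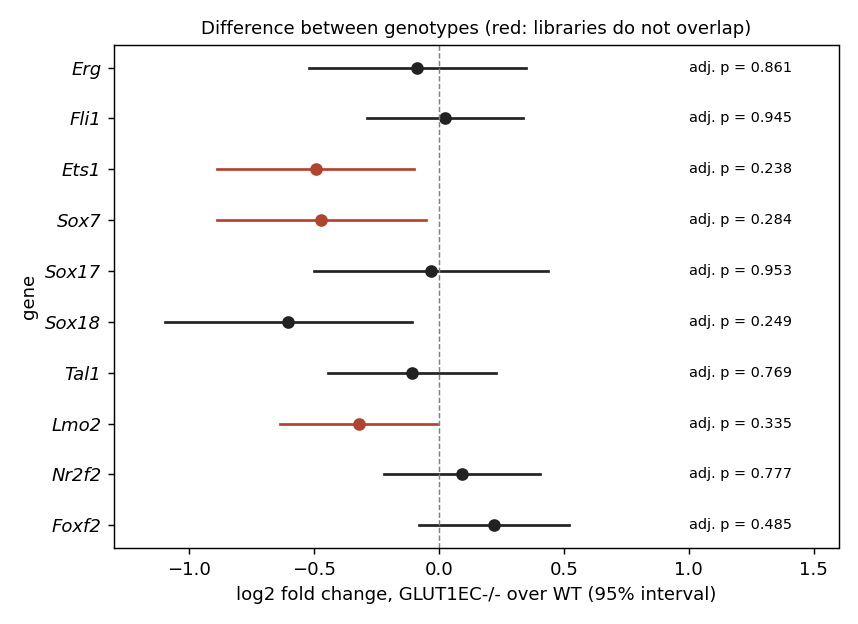
Log2 fold change of libraries labelled GLUT1EC-/- over WT libraries for the 10 members, with 95% intervals from the edgeR fit and adjusted p-values at the right; red marks genes whose libraries do not overlap. Intervals of Ets1, Sox7, Sox18 and Lmo2 lie below 0 before adjustment, and no adjusted p is below 0.05.

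The libraries labelled GLUT1EC-/- differed among themselves more than the WT libraries did. The SD of log2 CPM was larger among them for 9 of 10 members, against 73.2% of all tested genes, and Foxf2 was the exception. For Erg it was 0.37 among libraries labelled GLUT1EC-/- and 0.04 among WT libraries, and for Sox17 0.40 and 0.07. Of the 3 libraries labelled GLUT1EC-/-, GLUT1EC-/- 2 was the highest for 6 members (Erg, Sox7, Sox17, Tal1, Lmo2 and Foxf2) and the lowest for 3 (Fli1, Ets1 and Sox18). GLUT1EC-/- 3 was the lowest for 5 members (Erg, Sox7, Sox17, Tal1 and Lmo2). Relative to the WT mean, GLUT1EC-/- 2 stood at 0.39 for Sox17 and -0.99 for Sox18 on the log2 scale, whereas GLUT1EC-/- 3 stood at -0.30 and -0.21.

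**Figure D3:**
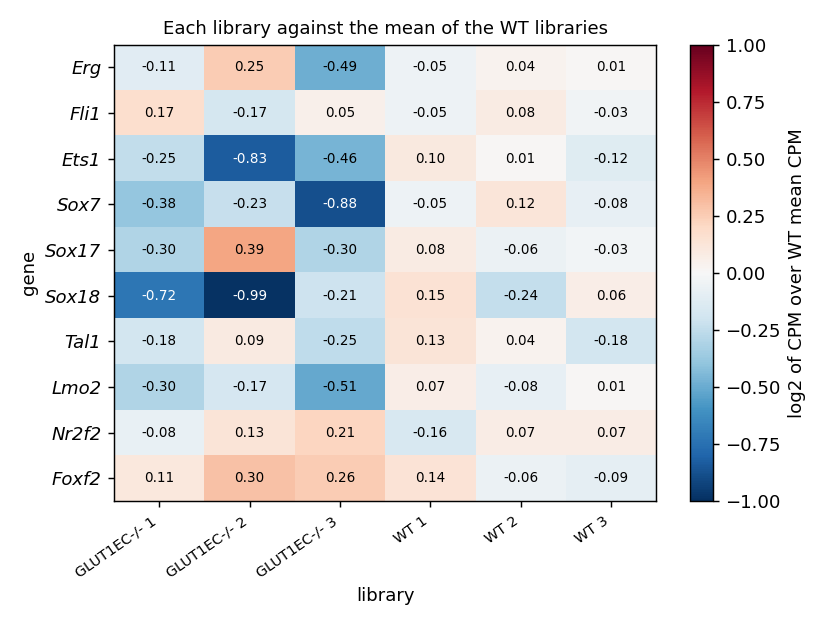
Log2 ratio of each library's CPM to the mean of the WT libraries (colour and printed value) for the 10 members in rows and the 6 libraries in columns. Ets1, Sox7, Sox18 and Lmo2 are negative in all 3 libraries labelled GLUT1EC-/-. Among these libraries Erg, Sox17 and Tal1 are positive in GLUT1EC-/- 2 only.

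Levels of different genes were compared per kb of annotated exon. In WT libraries Sox18 was the most abundant at 228 ± 31.2 CPM per kb and Nr2f2 the least at 8.04 ± 0.727 (SD, n = 3). Between them the order was Sox7, Lmo2, Erg, Foxf2, Sox17, Ets1, Fli1 and Tal1. Neighbours whose WT libraries overlapped were Sox7 and Lmo2, Foxf2 and Sox17, and Ets1 and Fli1. In libraries labelled GLUT1EC-/- Sox18 was again the highest at 150 ± 42.8 CPM per kb and Nr2f2 the lowest at 8.58 ± 0.868. There the neighbours from Foxf2 through Erg, Lmo2 and Sox7 to Sox17 all overlapped, and Ets1 came after Fli1. With the longest annotated transcript as the length, Sox18 stayed first and Fli1, Tal1 and Nr2f2 last in WT libraries, but Foxf2 moved from rank 5 to rank 7 and Sox17 from rank 6 to rank 4.

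**Figure D4:**
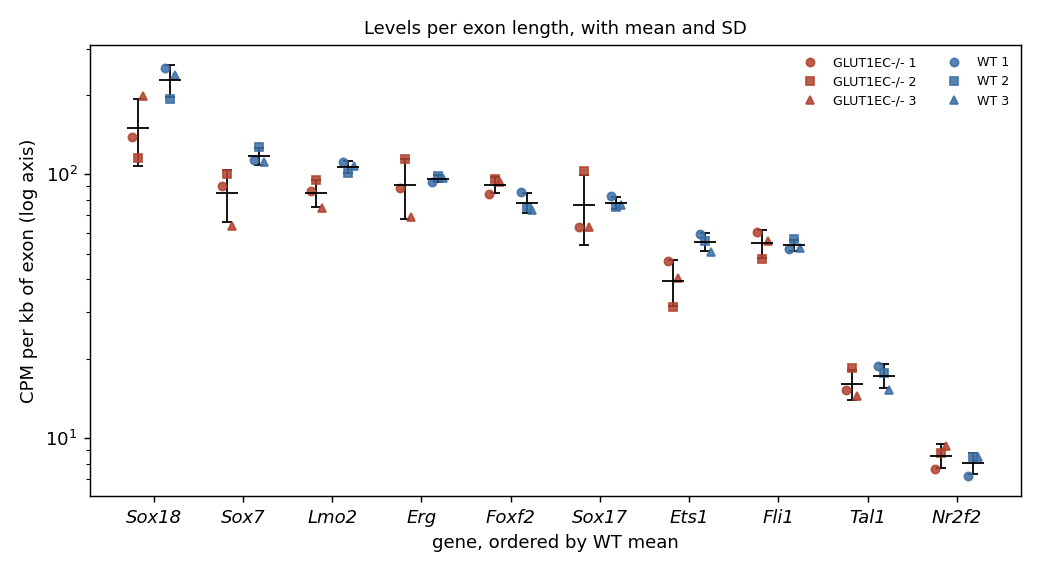
Levels in CPM per kb of exon on a log axis for each library, with libraries labelled GLUT1EC-/- left of WT libraries, ordered by the WT mean; bars show the mean and SD. Sox18 lies highest and Nr2f2 lowest in both groups.

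Summed per kb, the SOXF genes were at 292, 318 and 325 CPM per kb in libraries labelled GLUT1EC-/- and at 449, 396 and 427 CPM per kb in WT libraries, without overlap. Sox18 made up 47.4%, 36.2% and 60.9% of this sum in libraries labelled GLUT1EC-/- and 56.3%, 48.8% and 56.0% in WT libraries. Sox17 made up 21.7%, 32.3% and 19.5% in libraries labelled GLUT1EC-/- and 18.4%, 19.0% and 17.9% in WT libraries. The ETS members summed to 197, 194 and 165 CPM per kb in libraries labelled GLUT1EC-/- and to 205, 212 and 201 CPM per kb in WT libraries, also without overlap. Within this sum the Ets1 share was 23.8%, 16.1% and 24.4% in libraries labelled GLUT1EC-/- and 29.1%, 26.5% and 25.4% in WT libraries. These sums were formed after the values had been seen, and no test was made on them.

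**Figure D5:**
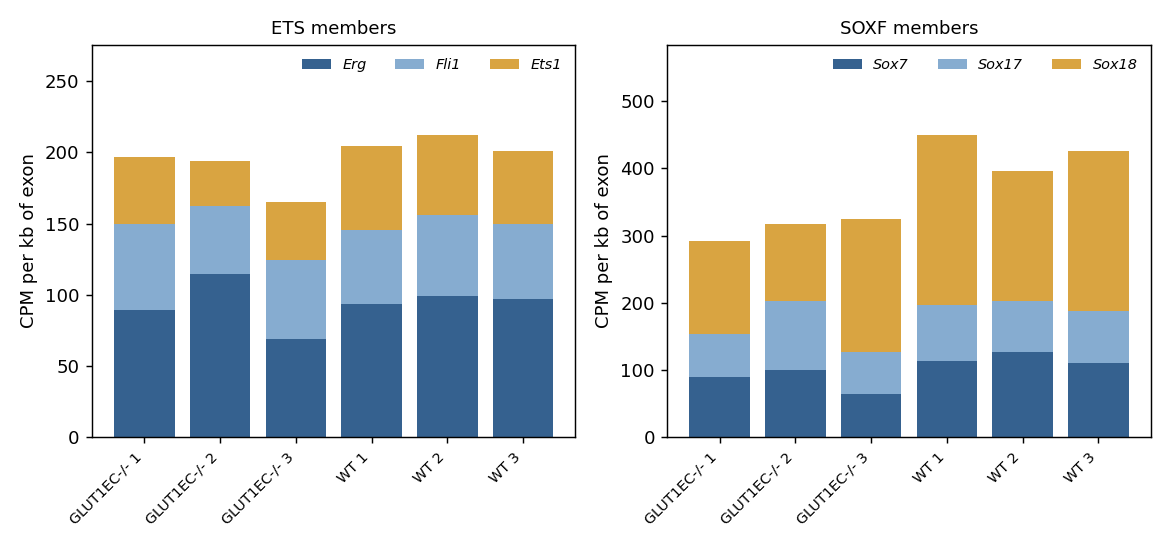
Stacked levels in CPM per kb of exon for the ETS members Erg, Fli1 and Ets1 (left) and the SOXF members Sox7, Sox17 and Sox18 (right) in each library. SOXF totals are 292 to 325 in libraries labelled GLUT1EC-/- and 396 to 449 in WT libraries.

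Animal numbers fall into the 200s and the 500s, and nothing in the labels says what these series stand for. Counts of Xist and Ddx3y marked GLUT1EC-/- 3 and WT 3 as male. The differences of mean log2 CPM within the 200s (1 library labelled GLUT1EC-/-, 2 WT) and within the 500s (2 and 1) were -0.30 and -0.52 for Ets1. They were -0.42 and -0.47 for Sox7, -0.68 and -0.66 for Sox18, and -0.30 and -0.35 for Lmo2. Among females (2 libraries each) and males (1 each) they were -0.59 and -0.34 for Ets1, -0.34 and -0.80 for Sox7, -0.81 and -0.27 for Sox18, and -0.23 and -0.52 for Lmo2. These 4 genes are those with an unadjusted p under 0.05, and for Ets1, Sox7 and Lmo2, whose libraries do not overlap, the sign within any subset is fixed. WT 3 was the only WT library in the 500s and the only male one, so both splits divided the WT libraries in the same way. By value Sox17, Tal1, Fli1 and Nr2f2 had opposite signs in the 200s and the 500s.

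The summed brain endothelial markers were lower in libraries labelled GLUT1EC-/-, with no overlap, and in bulk samples fewer cells of a type and less RNA per cell cannot be told apart. One marker, the phospholipid transfer protein gene Pltp, was at 1302, 984 and 2036 CPM in libraries labelled GLUT1EC-/- and at 3616, 3364 and 3250 CPM in WT libraries (log2 fold change -1.24, edgeR adjusted p = 0.0615). Without Pltp the sums overlapped, at 16963, 19553 and 16663 CPM in libraries labelled GLUT1EC-/- and 18033, 17495 and 18519 CPM in WT libraries. Relative to 1000 CPM of all 10 markers, Ets1 stood at 21.7, 12.9 and 18.3 in libraries labelled GLUT1EC-/- and at 23.3, 22.8 and 19.9 in WT libraries, and these values overlapped. On that scale Sox7 and Lmo2 kept groups that did not overlap, both lower, and Nr2f2 and Foxf2 gained them, both higher. On the same scale 25.6% of all genes had groups that did not overlap in the higher direction and 4.62% in the lower one. Foxf2 stood at 10.9, 11.04 and 11.8 in libraries labelled GLUT1EC-/- and 9.38, 8.52 and 7.96 in WT libraries. This scale was added after the data had been seen, and its sum includes Pltp. The sum also includes Cldn5, Pecam1, Cdh5 and Flt1, which are among the target genes of ETS and SOXF factors listed below. Values relative to the sum without Pltp were not computed.

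Several members are also made outside endothelium. Of 10 tested markers of lymphocytes, which use Ets1 and Fli1, 0 rose and 1 fell (Cd79a), against 0.863% and 0.445% of all genes. Their sum was 8.93 to 21.9 CPM in libraries labelled GLUT1EC-/- and 21.3 to 26.6 CPM in WT libraries. At an unadjusted p under 0.05 there were 4 lymphocyte markers, all lower, against 14.5% of all genes. By value 1 was higher and 9 lower, with a median log2 fold change of -0.68. Of 12 markers of microglia, which make Fli1, 3 rose (C1qc, Trem2 and C1qb) and 0 fell, against the same shares of all genes. Their sums were 779 to 1614 CPM in libraries labelled GLUT1EC-/- and 507 to 602 CPM in WT libraries. At an unadjusted p under 0.05 there were 7 microglia markers, all higher. By value 10 were higher and 2 lower, with a median log2 fold change of 0.94. Of 10 monocyte and macrophage markers 2 fell (Cd300e and Treml4), and the sums were 141 to 243 CPM in libraries labelled GLUT1EC-/- and 192 to 291 CPM in WT libraries. By value 5 were higher and 5 lower, and 4 had an unadjusted p under 0.05, 3 of them lower. The higher one, Cd163, was at 17.5, 26.1 and 23.1 CPM in libraries labelled GLUT1EC-/-. In WT libraries Cd163 was at 8.76, 13.8 and 11.8 CPM, without overlap (log2 fold change 0.96, edgeR adjusted p = 0.0925). None of these markers was at 0 in any library, and the part of these cells in the values of Ets1, Fli1 and Lmo2 was not tested. For Tal1 and Lmo2, which erythroid cells and megakaryocytes make, 0 of 4 erythroid and 0 of 7 platelet markers passed. Hba-a1 and Hba-a2 had identical counts in every library, so the erythroid list held 3 distinct measurements. Taken once, they summed to 69.3 to 765 CPM in libraries labelled GLUT1EC-/- and 560 to 758 CPM in WT libraries, and platelet sums were 21.7 to 26.4 CPM in libraries labelled GLUT1EC-/- and 25.6 to 45.2 CPM in WT libraries. The part of these cells in the values of Tal1 and Lmo2 was not tested. The erythroid regulator Gata1, a partner of TAL1 in red cells, had 0 counts in the 3 libraries labelled GLUT1EC-/- and 1 to 4 counts in WT libraries, and Klf1 had at most 9 counts in any library.

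Nr2f2 and Foxf2 are known from the mural and stromal cells of vessels as well. Pericyte markers (0 of 10 passed) summed to 1298 to 1648 CPM in libraries labelled GLUT1EC-/- and 1156 to 1362 CPM in WT libraries. Smooth muscle markers (0 of 7 passed) summed to 1826 to 2464 CPM in libraries labelled GLUT1EC-/- and 1878 to 2541 CPM in WT libraries. Of 10 fibroblast markers 1 rose, Dcn, against 0.863% of all genes. Their sums were 361 to 662 CPM in libraries labelled GLUT1EC-/- and 380 to 522 CPM in WT libraries. The most abundant of them, Igf2, was at 274, 190 and 272 CPM in libraries labelled GLUT1EC-/- and 269, 340 and 404 CPM in WT libraries. At an unadjusted p under 0.05 there were 8 fibroblast markers, 1 of them lower, against 14.5% of all genes. Their median log2 fold change was 0.85, and groups did not overlap for 6, against 22.9% of all genes. Lymphatic endothelium, which uses Sox18 and Nr2f2, was represented by 4 tested markers with sums of 13.6 to 14.5 CPM in libraries labelled GLUT1EC-/- and 9.50 to 12.2 CPM in WT libraries, and 0 of 4 passed. These sums did not overlap, and by value 2 of the 4 were higher and 2 lower. Lyve1, the most abundant, was at 6.03, 8.57 and 5.71 CPM in libraries labelled GLUT1EC-/-. In WT libraries it was at 2.82, 3.62 and 2.78 CPM, without overlap (log2 fold change 1.14, edgeR adjusted p = 0.080). Prox1, the master regulator of lymphatic endothelium, was at 1.25 to 2.53 CPM in libraries labelled GLUT1EC-/- and 2.27 to 2.88 CPM in WT libraries. None of these markers was at 0 in any library, and the part of these cells in the values of Nr2f2, Foxf2 and Sox18 was not tested. Of the neural lists, 1 of 8 astrocyte markers rose (Gfap), against 0.863% of all genes. For neurons 0 of 7 markers passed, and for oligodendrocyte precursors 0 of 4. The calls of C1qc, Trem2, C1qb, Cd79a, Cd300e, Treml4, Dcn and Gfap were each lost when any 1 WT library was left out. Those of C1qc, Trem2, C1qb and Cd79a were also lost with the number series as a term, those of Trem2, C1qb and Cd79a without GLUT1EC-/- 1, and those of Trem2 and C1qb with library size alone.

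Related and partner transcription factors also gave no call with edgeR. Of 71 tested factors in 5 lists, edgeR called 0, limma-voom 0 and DESeq2 2, and 7 had an unadjusted p under 0.05, which 14.5% of all genes had. Among 16 other ETS factors (0 called, median log2 fold change 0.18), Elk3, a repressor in endothelium, was at 309 ± 8.07 CPM in libraries labelled GLUT1EC-/- and 270 ± 43.9 CPM in WT libraries (SD, n = 3 each). Ets2, the closest relative of Ets1, was at 205, 203 and 154 CPM in libraries labelled GLUT1EC-/- and 281, 288 and 233 CPM in WT libraries, without overlap (log2 fold change -0.51, edgeR adjusted p = 0.194). Of 10 other SOX factors 0 were called, with a median of -0.20. Sox13, the most abundant of them, was at 599 CPM in GLUT1EC-/- 2 and at 261 to 324 CPM in the other 5 libraries. Its log2 difference was 0.31 with all libraries and -0.15 without GLUT1EC-/- 2. Sox9 had a log2 difference of -0.55 that did not pass with edgeR (edgeR adjusted p = 0.080). DESeq2, which called 5.93% of all genes, called Sox9 (DESeq2 adjusted p = 0.0032).

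Of 13 tested partners of TAL1 and LMO2, 0 were called, with a median of 0.15. Gata2, the GATA factor of endothelium, was at 492, 1172 and 469 CPM in libraries labelled GLUT1EC-/- and at 543, 515 and 568 CPM in WT libraries, so that GLUT1EC-/- 2 alone lay above WT, and its log2 difference was 0.39 with all libraries and -0.18 without that one. Tcf4, which encodes an E protein that pairs with TAL1, was at 297 ± 46.3 CPM in libraries labelled GLUT1EC-/- and 265 ± 16.7 CPM in WT libraries (SD, n = 3 each), with a log2 difference of 0.16, or 0.029 without GLUT1EC-/- 2. By value 9 of the 13 partners were higher and 4 lower. Tcf3, the only partner with an unadjusted p under 0.05, was at 102, 118 and 102 CPM in libraries labelled GLUT1EC-/-. In WT libraries Tcf3 was at 159, 158 and 150 CPM, without overlap (log2 difference -0.54, edgeR adjusted p = 0.090). Of 13 other forkhead factors 0 were called, with a median of -0.01. Foxq1 and Foxc1 flank Foxf2 on chromosome 13, with gaps of 64.8 kb and 175 kb, and unlike Foxf2 both were lower by value, with log2 differences of -0.30 for Foxq1 (edgeR adjusted p = 0.605) and -0.26 for Foxc1 (edgeR adjusted p = 0.491). Without GLUT1EC-/- 2 Foxq1 stood at -0.65 (edgeR adjusted p = 0.014) and Foxc1 at -0.44 (edgeR adjusted p = 0.045), while Foxf2 was at 0.18 (edgeR adjusted p = 0.461). Of 19 further endothelial factors 0 were called and 0 had an unadjusted p under 0.05. The most abundant, the hypoxia factor gene Epas1 and the flow-responsive Klf4, had log2 differences of 0.27 for Epas1 (edgeR adjusted p = 0.571) and -0.27 for Klf4 (edgeR adjusted p = 0.523). Without GLUT1EC-/- 2 that of Epas1 was 0.021.

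Leaving out GLUT1EC-/- 2 raised the share of all genes called to 5.73%. Still 0 of 10 members passed, with 5 at an unadjusted p under 0.05 against 19.7% of all genes, and the median of the members was -0.30. Of the 71 related factors 6 then fell: Sox4, Sox9, Tcf3, Foxc1, Foxq1 and Klf4.

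Of 22 endothelial target genes of ETS and SOXF factors, 1 rose and 0 fell, against 0.863% and 0.445% of all genes. Their median log2 fold change was 0.07. At an unadjusted p under 0.05 there were 7 targets, 2 of them lower, against 14.5% of all genes. Groups did not overlap for 10 targets, against 22.9% of all genes. The one that rose was Vwf, which encodes von Willebrand factor, at 5621, 5577 and 5555 CPM in libraries labelled GLUT1EC-/- and 1990, 2587 and 3194 CPM in WT libraries. The groups did not overlap (log2 fold change 1.11, SE 0.19, edgeR adjusted p = 0.0372). The call of Vwf was lost without WT 1 (0.198), WT 2 (0.201), WT 3 (0.0759) or GLUT1EC-/- 1 (0.110), these values being edgeR adjusted p. It was also lost with library size alone (0.0566), the number series as a term (0.118) or sex as a term (0.0551). Flt1, a VEGF receptor, was at 3302 ± 270 CPM in libraries labelled GLUT1EC-/- and 4358 ± 292 CPM in WT libraries (SD, n = 3 each; log2 fold change -0.40, edgeR adjusted p = 0.237). Cdh5, the gene of VE-cadherin and a classical ERG target, named after its values were seen, was at 1135, 1769 and 1159 CPM in libraries labelled GLUT1EC-/- and at 1313, 1290 and 1261 CPM in WT libraries. Cdh5 was above all WT libraries in GLUT1EC-/- 2 and below them in GLUT1EC-/- 1 and GLUT1EC-/- 3. Other targets did not share this order. Tie1 was at 923, 1011 and 1192 CPM in libraries labelled GLUT1EC-/- and at 1095, 1101 and 1069 CPM in WT libraries. Tek was at 776, 571 and 890 CPM in libraries labelled GLUT1EC-/- and at 980, 948 and 1001 CPM in WT libraries.

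Venous and arterial genes, the programmes that Nr2f2 and the SOXF factors are known to control, gave no call with edgeR. Of 11 venous genes 0 passed with edgeR, DESeq2 called 1 (5.93% of all genes) and limma-voom 0. At an unadjusted p under 0.05 there were 4, 2 of them lower, against 14.5% of all genes. By value 7 venous genes were higher and 4 lower, with a median log2 fold change of 0.14. The most abundant were Icam1, a leukocyte adhesion gene, with a log2 difference of 0.07 (edgeR adjusted p = 0.919; -0.33 without GLUT1EC-/- 2), and the interleukin-1 receptor gene Il1r1, with 0.79 (edgeR adjusted p = 0.194; 0.48 without GLUT1EC-/- 2). Of 13 arterial genes 0 passed with edgeR, DESeq2 called 2 and limma-voom 0. At an unadjusted p under 0.05 there were 3, 1 of them lower, and the shares of all genes were the same. By value 8 arterial genes were higher and 5 lower, with a median log2 fold change of 0.17. The most abundant were Notch4, an endothelial Notch receptor, with a log2 difference of 0.54 (edgeR adjusted p = 0.225), and the semaphorin gene Sema3g, with 0.29 (edgeR adjusted p = 0.416). Vegfc, the lower one at an unadjusted p under 0.05, was at 41.5, 30.7 and 47.3 CPM in libraries labelled GLUT1EC-/-. In WT libraries it was at 71.8, 77.5 and 54.1 CPM, without overlap (log2 difference -0.77, edgeR adjusted p = 0.129). Without GLUT1EC-/- 2 the arterial connexin gene Gja4 rose with a log2 difference of 0.51 (edgeR adjusted p = 0.0239), and Gja5 with 1.002 (edgeR adjusted p = 0.0409).

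The genes whose level followed that of Ets1 most closely over the 6 libraries, among 9245 genes that averaged 10 CPM or more, were Impact, Eml6 and Amd1. Their root mean square difference from Ets1 in gene-centred log2 CPM was 0.0554, 0.0676 and 0.0677. For Sox18 they were Sp110, Fam193b and Mtap6, at 0.0743, 0.0922 and 0.0946. These 2 members had the smallest p-values of the 10, and closeness over 6 libraries describes these libraries alone.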

How the data were processed

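The authors sequenced stranded mRNA libraries (Illumina TruSeq) as single-end reads of 100 bases, per the labels' protocols, and used STAR, GRCm38 and featureCounts, per the submitters' processing notes. Versions, annotation and strand setting are not given in the sources used here. Values are whole-number counts for each gene symbol, as the authors deposited them.

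All 6 libraries were fitted with edgeR 4.0.16 (R 4.3.3): TMM scaling, filterByExpr (minimum count 10, minimum total 15), robust quasi-likelihood F test on genotype alone, and Benjamini-Hochberg adjustment over 14838 genes. With 3 animals in a group, p-values reflect how far these animals differ. Libraries within a group differed beyond sampling noise (chi-square per degree of freedom 12.8 to 192). Standard errors are the log2 fold change over the square root of F. Alternatives were DESeq2 1.42.0, limma-voom (limma 3.58.1), RLE factors, unadjusted library size, no filter, the number series or sex as a term, each library left out, and, added later, scaling to endothelial markers. Scripts were tested on simulated data.

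Members and lists were chosen with earlier results of these data known. From each list the called members (at most 4) and the 2 most abundant were candidates for naming; other genes named were chosen after their values were seen. Older symbols were matched through RefSeq synonyms, among them Sfpi1 for Spi1 and Foxf1a for Foxf1. Exon lengths, positions and coding sequences come from GENCODE M21 (GRCm38). One marker result is not reported here.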

Additional observations from a re-analysis of the deposited data

How the results depend on the processing

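The count of members called was 0 under every alternative run, with a smallest edgeR adjusted p of 0.0579 (Sox7 without GLUT1EC-/- 2). Of 140 fold changes of single members under alternatives, 130 kept their direction and 10 reversed, all of Erg, Fli1, Sox17 and Tal1. With 1 library left out, log2 fold changes spanned -0.295 to 0.0803 for Erg, -0.0544 to 0.107 for Fli1, -0.308 to 0.0872 for Sox17, -0.145 to 0.530 for Sox13, -0.178 to 0.619 for Gata2 and -0.327 to 0.284 for Icam1. The last 3 were negative without GLUT1EC-/- 2 and positive with all libraries. Library size alone put Fli1 at -0.0148 and Icam1 at -0.0104. Scaling to the endothelial markers, chosen after seeing the data, put Erg at 0.0659, Sox17 at 0.116, Tal1 at 0.0495 and the median of the members at 0.0577, while the median of all genes moved to 0.18. The members' median was -0.10 with all libraries and spanned -0.302 to -0.0152 with 1 library left out. Genes called numbered 194 with all libraries, 879 with DESeq2, 14 with the number series as a term and 113 with sex as a term. Leaving out 1 library gave 0 to 862 calls: WT 1 left 0, WT 2 left 1, WT 3 left 5, GLUT1EC-/- 1 left 32 and GLUT1EC-/- 2 left 862. The cause of these moves was not tested. No paired analysis was made because the labels give every animal a number but not its litter.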
